A study of Arabidopsis thaliana with 16 samples.

Results

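The outer coat of the COPII vesicle, which carries newly made proteins from the endoplasmic reticulum (ER) to the Golgi, is built in *Arabidopsis* from SEC31 and SEC13, and 4 genes for them were followed here: *SEC31A* (*AT1G18830*), *SEC31B* (*AT3G63460*), *SEC13A* (*AT3G01340*) and *SEC13B* (*AT2G30050*). They were chosen by locus, 4 of the 33048 genes with deposited values, and all 4 had a value in each of the 16 mRNA-seq libraries. The question was how a SEC31 gene that is nearly silent in the wild type and its expressed paralog behaved in mutants of the BAH–PHD–CPL2 (BPC) complex or of the H3K27me3 pathway. H3K27me3, trimethylation of lysine 27 of histone H3, is a mark of repressed genes.

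The wild type was Col-0, and all mutants were in this background. Mutants of the BPC complex were *cpl2-2* (the RNA polymerase II phosphatase CPL2), *aipp3-1* (the BAH-domain protein AIPP3), *aipp2-1* and *paipp2-1* (the related PHD-finger proteins AIPP2 and PAIPP2) and the combined *aipp2-1/paipp2-1*. The alleles *cpl2-2*, *aipp3-1* and *aipp2-1* are T-DNA insertions, and *paipp2-1* was made with CRISPR/Cas9. The other mutants were *clf-81*, a mutant of the H3K27 methyltransferase CLF, and *lhp1-3*, a mutant of LHP1, a reader of the mark. Each of the 8 genotypes had 2 libraries of poly(A) RNA from whole 12-day-old seedlings grown with 16 h light and 8 h dark at 23 °C. The labels do not say that the 2 libraries came from separate cultures, so p-values measure only the spread between these libraries. In whole seedlings, fewer cells that express a gene and less RNA per cell cannot be told apart.

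COPII assembly starts when SEC12 loads the small GTPase SAR1 with GTP at the ER membrane. SAR1 recruits SEC23 and SEC24, the inner coat that selects cargo, and SEC13 and SEC31 then join as rods of an outer cage that bends the membrane into a bud. In yeast and animals SEC13 is also a subunit of the nuclear pore. When unfolded proteins accumulate in the ER, plants raise chaperone and coat genes through the sensors IRE1 and bZIP28, and *SEC31A* is one of the genes linked to that response.

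In the TAIR10.1 annotation *SEC31A* lies at chr1:6489233-6494634 on the plus strand with up to 22 exons, and *SEC31B* at chr3:23430623-23437374 on the minus strand, also with up to 22 exons. *SEC13A* lies at chr3:127303-128994 on the minus strand and *SEC13B* at chr2:12824372-12826684 on the plus strand, each with up to 2 exons. The encoded SEC31 proteins have 969 residues (A) and 1104 residues (B) and are identical at 71.2% of aligned residues. Both SEC13 proteins have 302 residues and are 89.1% identical. How far reads can be told apart decides whether a silent paralog can be measured beside an expressed one, so the most alike stretch of 150 bases of each pair, the length of a read, is shown with the bases that differ between the paralogs in capitals. The sequences are from the RefSeq TAIR10.1 genome, 5′ to 3′ on the coding strand. The *SEC31A* stretch (chr1:6492019-6492168, plus strand) and the *SEC31B* stretch (chr3:23433863-23434012, minus strand) both lie in coding exon 13.
SEC31A: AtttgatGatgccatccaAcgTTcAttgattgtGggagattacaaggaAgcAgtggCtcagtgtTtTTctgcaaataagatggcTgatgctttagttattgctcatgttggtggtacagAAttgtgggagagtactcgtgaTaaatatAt
SEC31B: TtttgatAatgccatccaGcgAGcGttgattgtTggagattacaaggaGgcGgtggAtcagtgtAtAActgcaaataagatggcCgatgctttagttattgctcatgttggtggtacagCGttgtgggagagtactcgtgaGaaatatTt
The *SEC13A* stretch (chr3:127755-127904, minus strand) and the *SEC13B* stretch (chr2:12826101-12826250, plus strand) lie in the single coding exon of each gene.
SEC13A: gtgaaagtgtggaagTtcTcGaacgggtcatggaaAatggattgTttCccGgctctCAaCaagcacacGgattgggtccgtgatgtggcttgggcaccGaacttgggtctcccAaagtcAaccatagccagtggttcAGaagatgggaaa
SEC13B: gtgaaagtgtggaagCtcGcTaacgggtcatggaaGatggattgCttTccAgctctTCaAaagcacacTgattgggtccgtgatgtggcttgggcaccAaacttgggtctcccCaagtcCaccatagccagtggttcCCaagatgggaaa

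Even there, the SEC31 genes differed at 18 of 150 bases and the SEC13 genes at 16 of 150. No window of 75 or 150 bases of any of the 4 transcripts occurred unchanged in its paralog or in another gene. Of windows of 31 bases, 6 of 3447 of *SEC31A* and 2 of 1251 of *SEC13A* occurred in the paralog. A full-length read of one paralog therefore matched the other with mismatches at best. How the authors' counting treated mismatched reads is not given in the sources used here.

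Values are FPKM, fragments per kilobase of transcript scaled to the size of the library, so levels can be compared between genes. The steps between low values gave depths of 19190000 to 27120000 fragments per library (median 22795000), and 3 fragments of *SEC31A* are worth 0.033 to 0.046 FPKM. Of the mutated genes, *AIPP3* read 23.2 ± 0.573 FPKM (SD, n = 2) in Col-0 and 5.42 ± 0.813 in *aipp3-1*, and *CPL2* read 14.7 ± 0.877 and 6.07 ± 0.0778 in *cpl2-2*. *AIPP2* was only partly lower in *aipp2-1*, at 3.67 and 4.21 FPKM against 5.24 and 5.44 in Col-0, and reached 1.38 and 1.36 in *aipp2-1/paipp2-1*. *PAIPP2* (10.9 FPKM in Col-0, 7.23 in *paipp2-1*), *CLF* (9.96, and 7.58 in *clf-81*) and *LHP1* (9.59, and 6.37 in *lhp1-3*) were also only partly lower in their own mutants. Pairs of libraries correlated across genes at 0.987 to 0.992 except in *aipp2-1/paipp2-1*, at 0.943. The *aipp2-1/paipp2-1* pair therefore stands apart, and results that rest on it are given for each library. Green tissue markers, which a seedling should hold, were expressed in every library (223 to 1270 FPKM summed over 3 genes).

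In Col-0 the 4 genes fell into a silent one and 3 expressed ones. *SEC31B* at 67.8 ± 0.658 FPKM lay above 95.4% of all genes, *SEC13A* at 57.2 ± 3.29 above 94.5%, and *SEC13B* at 51.1 ± 3.29 above 93.8%. *SEC31A* read 0.03 and 0.06 FPKM, about 2 and 5 fragments, and lay above 30.4% of genes, so that one library was below and the other above the worth of 3 fragments.

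*SEC31A* was higher in the mutants of the BPC complex by steps of very different size. The *aipp2-1/paipp2-1* libraries read 33.21 and 22.93 FPKM, the *cpl2-2* libraries 16.13 and 15.71, and the *aipp3-1* libraries 2.40 and 3.25. All 6 libraries lay far above both Col-0 libraries, and the 3 genotypes did not overlap with each other. The *paipp2-1* libraries read 0.74 and 0.83 FPKM and the *aipp2-1* libraries 0.14 and 0.21. The *lhp1-3* libraries read 0.18 and 0.31 FPKM and the *clf-81* libraries 0.10 and 0.08. These 4 genotypes also lay above Col-0 in each library, but at a level where a library held an estimated 6.6 to 62.6 fragments of the gene.

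**Figure D1:**
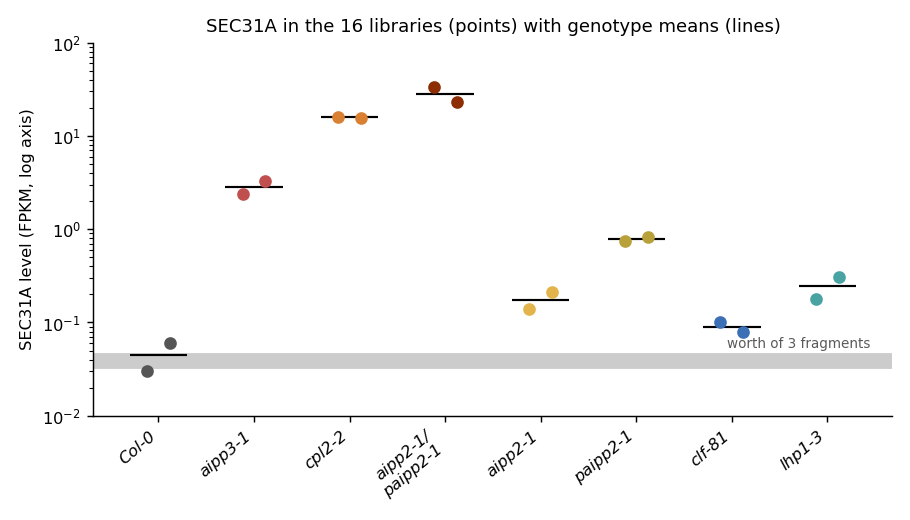
*SEC31A* level in FPKM (log axis) in each library (points) of the 8 genotypes, with the genotype mean (line) and the range of the worth of 3 fragments over libraries (grey band). The points climb from 0.03 and 0.06 in Col-0 to 22.93 and 33.21 in *aipp2-1/paipp2-1*, while *clf-81* stays at 0.08 and 0.10.

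Because Col-0 held about 7 fragments in all, folds were also computed from fragments per depth, with 95% exact (Clopper-Pearson) intervals that cover counting error only. *SEC31A* was 612.5 times the Col-0 level in *aipp2-1/paipp2-1* (interval 297 to 1524), 354 times in *cpl2-2* (172 to 882) and 63.1 times in *aipp3-1* (30.4 to 158). The ratio was 17.5 in *paipp2-1* (8.24 to 44.5), 5.28 in *lhp1-3* (2.34 to 13.9) and 3.97 in *aipp2-1* (1.69 to 10.8). For *clf-81*, with 15 fragments, the ratio of 2.03 had an interval of 0.78 to 5.89, so a difference from Col-0 was not detectable at this depth. The intervals of the 3 mutants with most *SEC31A* all lay above 30. Those of *aipp2-1/paipp2-1* and *cpl2-2* overlapped, as did those of *aipp3-1* and *paipp2-1* and those of *lhp1-3*, *aipp2-1* and *clf-81*. The *paipp2-1* interval also overlapped those of *lhp1-3* and *aipp2-1*. All the intervals rest on the same Col-0 fragments, so their overlap does not test mutants against each other.

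For the test across libraries, limma was run on log2(FPKM + 0.5) for 19895 genes in all 16 libraries together, with Benjamini-Hochberg adjusted p-values. Calls needed both a change of 2-fold or more and an adjusted p below 0.05, and all 7 comparisons share the Col-0 libraries. The pseudocount of 0.5 lies far above the Col-0 level of *SEC31A*, so these changes understate the folds above. *SEC31A* rose by 5.69 on the log2 scale in *aipp2-1/paipp2-1* (SE 0.197, adjusted p 2.21e-08), by 4.91 in *cpl2-2* (adjusted p 1.19e-07) and by 2.60 in *aipp3-1* (adjusted p 4.69e-05). From the top of all genes tested, its rank was 4 in the first of these comparisons, 3 in the second and 27 in the third. With a pseudocount of 0.1 the 3 changes were 7.58, 6.80 and 4.33, and all stayed called.

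In *paipp2-1* the change of 1.24 was also called (adjusted p 0.027). That call was lost when either library of Col-0, *aipp2-1*, *paipp2-1* or *lhp1-3* was left out (adjusted p 0.052 to 0.19) and with a pseudocount of 1 (0.77, adjusted p 0.081). The values in *aipp2-1* (0.31, adjusted p 1), *lhp1-3* (0.45, adjusted p 0.147) and *clf-81* (0.11, adjusted p 0.711) did not pass. With a pseudocount of 0.1 the *lhp1-3* value was 1.23 and passed (adjusted p 0.013). Of the 4 genes, *SEC31A* alone was called in any comparison with Col-0. Among all genes tested, 6.44% were called higher in *aipp2-1/paipp2-1*, 2.71% in *cpl2-2*, 3.14% in *aipp3-1* and 0.131% in *paipp2-1*, and 0.00503% in *aipp2-1*, 5.98% in *clf-81* and 2.80% in *lhp1-3*. The study put *SEC31A* on its list of commonly raised genes from these same libraries, so its position against this background is a description and no independent evidence.

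Neighbours in the order of *SEC31A* levels were then compared. *cpl2-2* lay above *aipp3-1* by 2.32 on the log2 scale (adjusted p 0.000273), a call that 0.432% of genes shared. In *aipp2-1/paipp2-1* it lay above *cpl2-2* by 0.78 (adjusted p 0.0292), less than 2-fold, where 7.23% of genes passed as higher. The difference was 0.51 (adjusted p 0.15) without the first *aipp2-1/paipp2-1* library, and it did not pass without either *cpl2-2* library (adjusted p 0.10 and 0.14). *aipp3-1* lay above *paipp2-1* (*paipp2-1* minus *aipp3-1* -1.36, adjusted p 0.0043, a call in 1.63% of genes). *paipp2-1* lay above *lhp1-3* (*lhp1-3* minus *paipp2-1* -0.79, adjusted p 0.0176, passed by 9.07% of genes). At the low end, *lhp1-3* and *aipp2-1* (0.14, interval -0.29 to 0.57), *clf-81* and *aipp2-1* (-0.19, interval -0.62 to 0.24) and *clf-81* and Col-0 (0.11, interval -0.32 to 0.55) did not differ beyond their spread. The single PHD-finger mutants were apart by 0.93 (*paipp2-1* higher), which did not pass (adjusted p 0.108) in a comparison where 0.0653% of genes passed as higher. Without the *aipp2-1/paipp2-1* libraries in the fit it passed (adjusted p 0.026).

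The level in *aipp2-1/paipp2-1* exceeded the sum of the changes in the single mutants. On the log2 scale the excess was 4.14 (SE 0.279, adjusted p 0.000124), a call in 2.41% of all genes, and it was 4.05 and 3.83 with pseudocounts of 0.1 and 1. The partly retained *AIPP2* transcript in *aipp2-1*, against 1.36 and 1.38 FPKM in *aipp2-1/paipp2-1*, moved with this comparison, and its part in the result was not tested.

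*SEC31B*, the expressed paralog, differed little from Col-0 in *cpl2-2* and *aipp3-1*, and in *aipp2-1/paipp2-1* its libraries lay on either side of Col-0. It read 68.25 and 67.32 FPKM in Col-0, 84.58 and 62.85 in *aipp2-1/paipp2-1*, 67.61 and 70.32 in *cpl2-2*, and 73.41 and 71.26 in *aipp3-1*. Only the first *aipp2-1/paipp2-1* library stood clear of the others, and the second was below Col-0. The log2 differences from Col-0 were 0.10 (95% interval -0.16 to 0.36) in *aipp2-1/paipp2-1*, 0.02 (-0.24 to 0.28) in *cpl2-2* and 0.09 (-0.17 to 0.35) in *aipp3-1*, and none passed. The first of these rested on single libraries, at 0.32 and past the threshold without the second *aipp2-1/paipp2-1* library (adjusted p 0.0039) and -0.11 without the first. No bound of the 3 intervals reached a 2-fold change.

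The lowest *SEC31B* level was in *clf-81*, with 48.30 and 44.79 FPKM, below every other library. The change of -0.54 (SE 0.119, interval -0.80 to -0.28) passed the adjusted p (0.00576) without reaching 2-fold, and without the second *clf-81* library it was -0.48 with an adjusted p of 0.056. Among all genes tested, 14.7% passed the adjusted p as lower in *clf-81*. *paipp2-1* was next, at 58.06 and 56.35 FPKM (-0.24, adjusted p 0.518), and passed only when the *aipp2-1/paipp2-1* libraries were left out of the fit (adjusted p 0.047). *aipp2-1* at 68.43 and 74.19 FPKM and *lhp1-3* at 65.12 and 67.87 did not differ from Col-0 beyond their spread. *clf-81* also lay below *lhp1-3*, its neighbour in the H3K27me3 pathway (*lhp1-3* minus *clf-81* 0.51, adjusted p 0.0147, passed as higher by 7.14% of genes), a difference that 4 of the 16 fits with a library left out no longer passed.

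**Figure D2:**
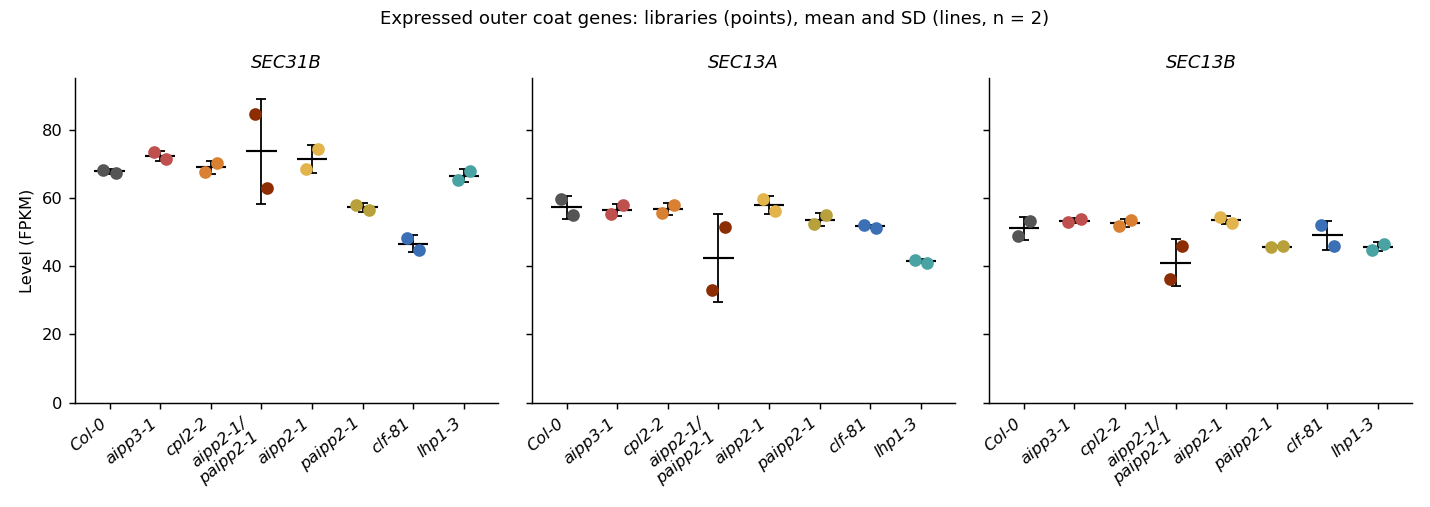
Levels in FPKM of *SEC31B*, *SEC13A* and *SEC13B* in each library (points), with the mean and SD of each genotype (n = 2). Values run from 33.15 to 84.58 on one shared axis, the *aipp2-1/paipp2-1* pair is the widest in each panel, and *clf-81* is lowest for *SEC31B*.

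Added together, the SEC31 paralogs showed how much of the pool the raised gene made up. *SEC31A* was 0.0439% and 0.0890% of the summed SEC31 level in Col-0, 28.2% and 26.7% in *aipp2-1/paipp2-1*, 19.3% and 18.3% in *cpl2-2*, and 3.17% and 4.36% in *aipp3-1*. Shares were thus close between the *aipp2-1/paipp2-1* libraries although their levels were not. In *paipp2-1* the shares were 1.26% and 1.45%, and in the other 3 genotypes they ran from 0.178% to 0.455%. The sum was 68.28 and 67.38 FPKM in Col-0, 117.79 and 85.78 in *aipp2-1/paipp2-1*, and 83.74 and 86.03 in *cpl2-2*. *SEC31B* remained the larger part of the sum in all 16 libraries.

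The summed SEC31 level rose in *aipp2-1/paipp2-1* by 0.56 on the log2 scale (adjusted p 0.00755) and fell in *clf-81* (-0.54, adjusted p 0.0072). The rise was 0.34 without the first *aipp2-1/paipp2-1* library and 0.79 without the second, past the threshold in both, and the fall was -0.48 and did not pass without the second *clf-81* library (adjusted p 0.065). In a fit of only the *aipp2-1/paipp2-1* and Col-0 libraries the rise did not pass (adjusted p 0.34). The value in *cpl2-2*, 0.32, did not pass with all libraries (adjusted p 0.163) and passed without the *aipp2-1/paipp2-1* libraries (adjusted p 0.0042). Relative to the summed SEC13 level, SEC31 stood at 0.631 and 0.622 in Col-0 and at 1.70 and 0.882 in *aipp2-1/paipp2-1*. The ratio was 0.780 and 0.772 in *cpl2-2*, 0.701 and 0.668 in *aipp3-1*, and 0.465 and 0.461 in *clf-81*. In *lhp1-3* it was 0.754 and 0.778, near *cpl2-2*, with *SEC31A* at 0.276% and 0.455% of the SEC31 sum. The SEC13 sum there was 86.66 and 87.62 FPKM against 108.27 in each Col-0 library, and the SEC31 sum was 65.3 and 68.18. Ratios in *aipp2-1* and *paipp2-1* ran from 0.567 to 0.683. These ratios of transcript levels were not tested.

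**Figure D3:**
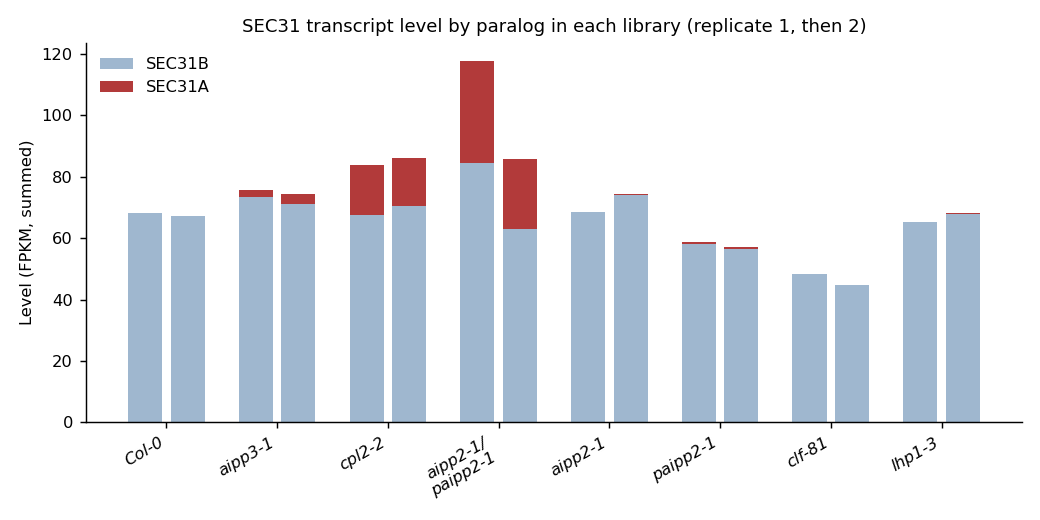
Summed SEC31 level in FPKM in each library, replicate 1 then 2 for each genotype, split into *SEC31B* (blue) and *SEC31A* (red). The red part is visible in *aipp2-1/paipp2-1*, *cpl2-2* and *aipp3-1*, where it makes up 3.17% to 28.2% of the bar, and the *clf-81* bars are the lowest.

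The SEC13 genes, partners of SEC31 in the outer cage, did not follow *SEC31A*. *SEC13A* read 59.54 and 54.89 FPKM in Col-0, 55.62 and 57.94 in *cpl2-2*, and 55.25 and 57.82 in *aipp3-1*. Its levels in the mutants lay between those of the Col-0 libraries, with log2 differences of -0.01 (interval -0.34 to 0.32) and -0.02 (-0.35 to 0.32). In *aipp2-1/paipp2-1* it read 33.15 and 51.38 FPKM, both below Col-0 but far apart from each other. The mean change there was -0.46 (SE 0.152, adjusted p 0.0453). This passed only narrowly, since 15 of the 16 fits with a library left out raised the adjusted p above the threshold. The change was -0.78 without the second *aipp2-1/paipp2-1* library (adjusted p 7.4e-06) and -0.15 without the first, so the first library decides it. Among all genes tested, 9.08% passed as lower in this comparison.

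In *lhp1-3* *SEC13A* read 41.92 and 41.01 FPKM, close to each other and below both Col-0 libraries. The change of -0.46 did not pass with all libraries (adjusted p 0.0586) and passed when the *aipp2-1/paipp2-1* libraries were left out (adjusted p 0.00023). The SE of this gene was 0.152 with that pair in the fit and 0.062 without it. *paipp2-1* (52.30 and 54.92 FPKM), *clf-81* (51.99 and 51.31) and *aipp2-1* (59.78 and 56.13) did not differ from Col-0 beyond their spread. Summed green tissue markers were 662 to 1046 FPKM in Col-0, 347 to 349 in *lhp1-3*, and 223 and 655 in *aipp2-1/paipp2-1*. They were also below Col-0 in *cpl2-2* (535 to 655) and *clf-81* (604 to 626), where *SEC13A* changed by -0.01 and -0.15. In *aipp3-1* they were 865 to 875, in *aipp2-1* 877 to 923 and in *paipp2-1* 998 to 1270. The part of these markers in the *SEC13A* values was not tested.

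*SEC13B* was the steadiest of the 4 genes. Its genotype means ran from 41.0 to 53.5 FPKM, and no comparison with Col-0 passed. It read 48.73 and 53.38 FPKM in Col-0, 36.15 and 45.91 in *aipp2-1/paipp2-1*, 51.71 and 53.47 in *cpl2-2*, and 52.82 and 53.79 in *aipp3-1*. The *aipp2-1/paipp2-1* libraries again lay below both Col-0 libraries (-0.32, interval -0.56 to -0.08, adjusted p 0.0542), and the difference was -0.49 and passed without the second of them (adjusted p 0.00046) and -0.15 without the first. Against *aipp3-1*, whose libraries were close together, the same genotype passed at -0.38 (adjusted p 0.0285), where 12.7% of genes passed as lower, though not without either *aipp3-1* library (adjusted p 0.097 and 0.14) or the first *aipp2-1/paipp2-1* library (-0.21, adjusted p 0.092). In *paipp2-1* (45.64 and 45.87), *lhp1-3* (44.74 and 46.61), *clf-81* (52.10 and 46.05) and *aipp2-1* (54.29 and 52.75) the log2 differences lay between -0.16 and 0.07.

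Across genotypes the SEC13 genes kept a near-even split, with *SEC13A* at 46.8% to 55.0% of the summed SEC13 level in all 16 libraries. Their genotype means had a Pearson correlation of 0.866 over the 8 genotypes, against 0.455 for the SEC31 pair. Between SEC31 and SEC13 genes the correlations were -0.324 to 0.0856. These are descriptions over 8 means that share library depth and the *aipp2-1/paipp2-1* pair. The SEC13 sum changed by -0.40 in *aipp2-1/paipp2-1* (adjusted p 0.0422) and by -0.31 in *lhp1-3* (adjusted p 0.117), and the first was lost in the same 15 fits as for *SEC13A*.

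**Figure D4:**
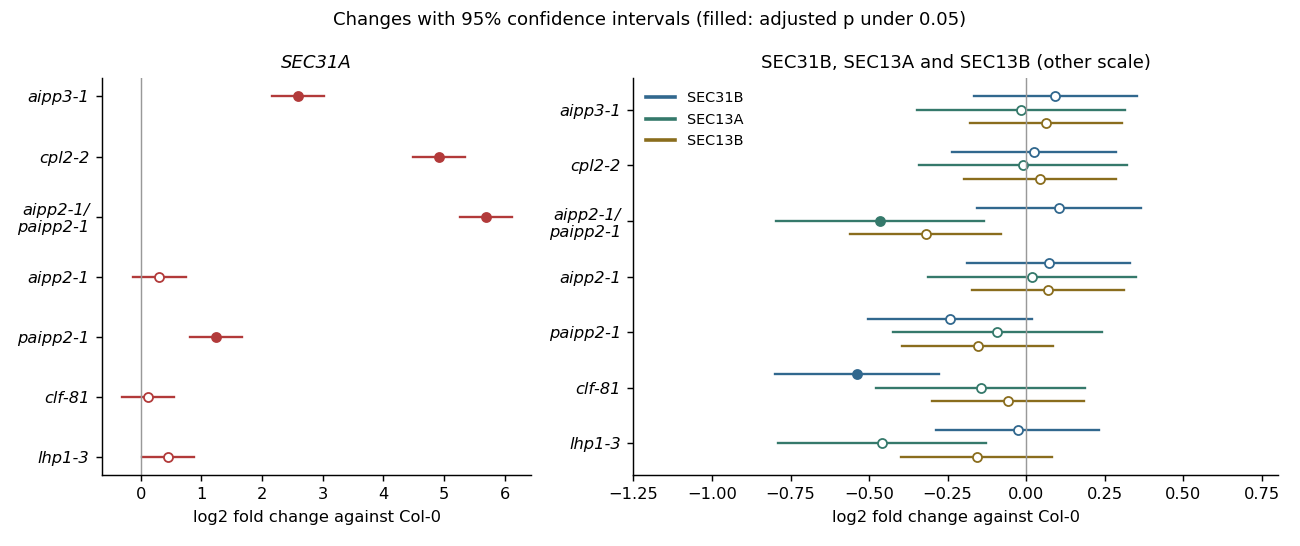
Log2 fold change against Col-0, on the scale of log2(FPKM + 0.5), with 95% confidence intervals, for *SEC31A* (left) and for *SEC31B*, *SEC13A* and *SEC13B* (right, finer axis) in the 7 mutants. Filled points pass the adjusted p: 4 of the *SEC31A* values, *SEC31B* in *clf-81* and *SEC13A* in *aipp2-1/paipp2-1*.

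The partners of the outer coat were read from a list of 21 other COPII genes, the SAR1, SEC23, SEC24, SEC12 and SEC16 families, of which 18 were tested. None passed limma's adjusted p in *cpl2-2*, *aipp3-1*, *aipp2-1* or *paipp2-1*, where 1, 2, 0 and 1 of them had an unadjusted p under 0.05. The list medians there were 0.04, 0.06, 0.07 and -0.08 beside 0.01, 0.07, 0.05 and 0.01 for all genes. Among all genes, 4.97%, 7.42%, 0.00503% and 0.236% passed as higher there, and 1.97%, 1.93%, 0% and 0.131% as lower. In *aipp2-1/paipp2-1* 1 rose and 4 fell, where 14.8% of all genes passed as higher and 9.08% as lower. The count of 4 changed in 14 of the 16 fits with a library left out, to 0 without the first Col-0 library and to 9 without the second *aipp2-1/paipp2-1* library. The riser was *ATSAR1* (*AT1G09180*), of the SAR1 GTPase family, at 1.18 and 2.01 FPKM against 0.28 and 0.77 in Col-0 (1.04, adjusted p 0.0451), a call that was lost in 12 of the 16 fits with a library left out. In *clf-81* 9 of the 18 fell and 1 rose, with a list median of -0.28 beside -0.06 for all genes, where 14.7% of all genes passed as lower. The 9 were 5 SEC23 family genes, 3 SEC24 family genes and *SEC16B*, which scaffolds ER exit sites, and the riser was *SAR1B*. The SEC23 family gene *AT2G21630* read 2.06 and 2.33 FPKM in *clf-81* against 4.37 and 4.06 in Col-0 (-0.81, adjusted p 0.00218), and the SEC24 family gene *AT4G32640* 19.73 and 21.28 against 34.80 and 29.81 (-0.64, adjusted p 0.00185). In both, the *clf-81* libraries lay below the Col-0 libraries by more than either pair was apart. *SEC31B* was lower in the same libraries. The count of 9 was 5 without the first Col-0 library and 5 without the second *clf-81* library. In *lhp1-3* 1 fell, again *AT2G21630*, where 8.37% of all genes passed as lower, and this count was 0 without either Col-0 library and 5 without the *aipp2-1/paipp2-1* libraries.

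The COPI coat, which returns material from the Golgi to the ER, had no gene past limma's adjusted p in *cpl2-2*, *aipp3-1*, *aipp2-1* or *paipp2-1* among its 12 tested genes of 14, and 1 with an unadjusted p under 0.05 in *paipp2-1*. Among all genes, 4.97%, 7.42%, 0.00503% and 0.236% passed as higher in these 4 mutants, and 1.97%, 1.93%, 0% and 0.131% as lower. With so few genes, a count of 0 is near these shares. In *clf-81* 5 fell, beside 14.7% of all genes, with a median of -0.32 against -0.06 for all genes. Leaving out single libraries gave 2 (without the second *clf-81* library) to 8 (without either *aipp2-1/paipp2-1* library). In *lhp1-3* 1 fell, beside 8.37% of all genes, a count that changed in all 16 such fits, to 7 without either *aipp2-1/paipp2-1* library and to 0 in the others. In *aipp2-1/paipp2-1* 1 rose and 1 fell, beside 14.8% and 9.08% of all genes, and both counts ran from 0 without the first Col-0 library to 4 without the second *aipp2-1/paipp2-1* library. Of the 7 genes of the outer ring of the nuclear pore, 3 fell in *clf-81*, namely *NUP107*, *NUP96* and *AT1G33410*, beside 14.7% of all genes, and none passed in the other 6 mutants, where 0 to 2 had an unadjusted p under 0.05. In those 6 mutants 0.00503% to 14.8% of all genes passed as higher and 0% to 9.08% as lower. The count of 3 was 0 without the second Col-0 or the second *clf-81* library, 1 without the first Col-0 library and 4 without either *aipp2-1/paipp2-1* library. No gene of either list reached a called 2-fold change.

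The ER stress list, 28 sensors, factors and chaperones of the unfolded protein response, had members that rose in the 3 mutants with the most *SEC31A*, and also in *clf-81*. By the adjusted p, 11 rose in *aipp2-1/paipp2-1*, where 1 fell (9.08% of all genes did), 7 rose in *cpl2-2* and 8 in *aipp3-1*. Among all genes, 14.8%, 4.97% and 7.42% passed as higher in these comparisons, and the list medians of 0.37, 0.35 and 0.35 stood beside 0.05, 0.01 and 0.07 for all genes. None passed limma's adjusted p in *aipp2-1* or *paipp2-1* (0 and 1 with an unadjusted p under 0.05), where 0.00503% and 0.236% of all genes passed as higher. In *clf-81*, where *SEC31A* had no detectable change, 8 rose against 13.1% of all genes, with a list median of 0.21 beside -0.06 for all genes. In *lhp1-3* 1 rose against 9.05% and 3 fell against 8.37%, with a list median of 0.15 beside -0.01. The list medians were 0.11 in *aipp2-1* and -0.04 in *paipp2-1*, beside 0.05 and 0.01 for all genes. Counts depended on single libraries: without the first Col-0 library they were 5 in *aipp2-1/paipp2-1*, 0 in *cpl2-2* and 2 in *aipp3-1*, and without the *aipp2-1/paipp2-1* libraries 15 in *aipp3-1* and 16 in *cpl2-2*. The 8 in *clf-81* became 2 without the first Col-0 library, 5 and 3 without the first and the second *clf-81* library, and 12 without the *aipp2-1/paipp2-1* libraries. In *lhp1-3* the count of 1 changed in 14 of the 16 fits with a library left out (0 to 8, the highest without the *aipp2-1/paipp2-1* libraries), and the 3 that fell became 0 without the first Col-0 or the second *lhp1-3* library.

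The largest changes of the list were in *BIP3* (*AT1G09080*), an HSP70 chaperone of the ER lumen induced by ER stress. It read 0.64 and 2.16 FPKM in Col-0, 24.12 and 7.98 in *aipp2-1/paipp2-1*, 6.72 and 10.64 in *cpl2-2*, and 11.40 and 5.39 in *aipp3-1*, with called changes of 3.05, 2.36 and 2.27. Each of these 6 libraries lay above both Col-0 libraries, which were themselves far apart. *CRT3*, a calreticulin that folds glycoproteins such as receptor kinases, read 36.94 and 50.88 FPKM in Col-0 and 81.32 to 234.12 in the same mutants, with called changes in *cpl2-2* (1.46) and *aipp2-1/paipp2-1* (1.92). The *aipp2-1/paipp2-1* libraries read 234.12 and 117.07 FPKM. *TIN1*, a gene induced by the ER stress drug tunicamycin, was called in all 3 (1.18, 1.24 and 1.28), and it is also on the list the study chose from these libraries. It read 5.47 and 5.14 FPKM in *aipp2-1/paipp2-1* against 1.79 and 2.37 in Col-0.

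*ERDJ3A*, a co-chaperone of BiP, was called in *aipp3-1* (1.02) and *aipp2-1/paipp2-1* (1.31). *PDIL1-2*, a protein disulfide isomerase (1.12), and *AERO1*, the oxidase that recharges such isomerases (1.29), were called in *aipp2-1/paipp2-1*. *BZIP60*, the transcription factor activated by IRE1, was the one gene of the list called in *clf-81* (1.13, adjusted p 4.76e-05), at 40.06 and 42.01 FPKM against 18.81 and 18.19 in Col-0. *SEC31A* read 0.10 and 0.08 FPKM in those *clf-81* libraries.

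**Figure D5:**
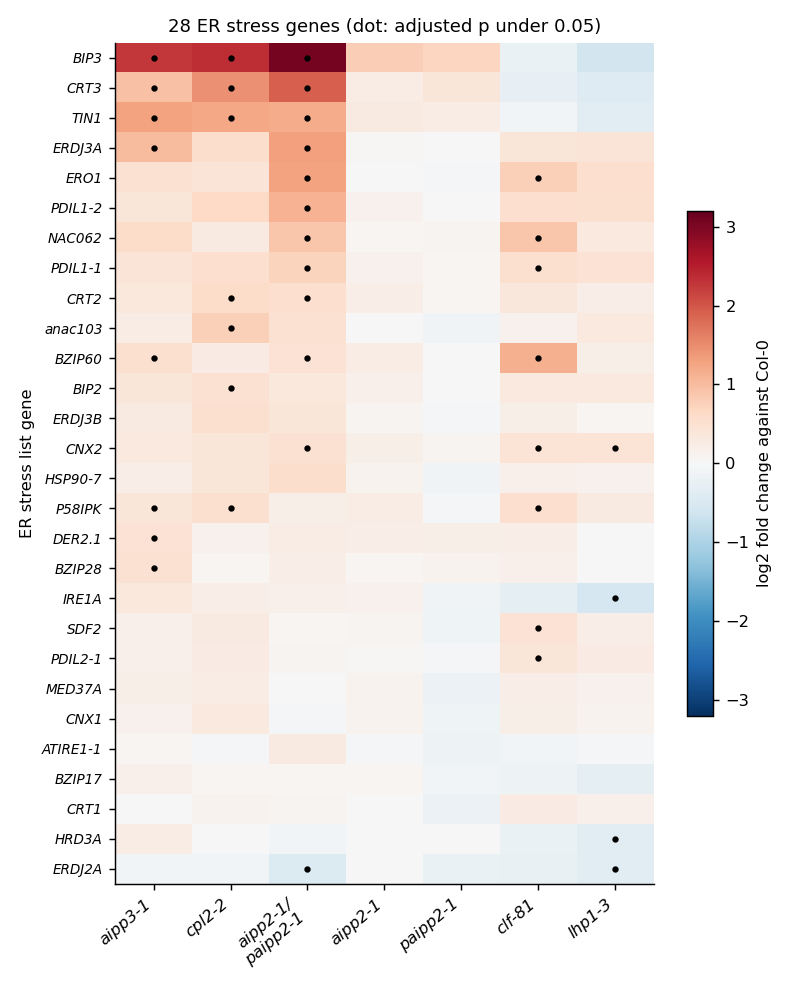
Log2 fold change against Col-0 (colour) of the 28 genes of the ER stress list (rows) in the 7 mutants (columns), with a dot where the adjusted p passed. The *BIP3* row holds the largest values, 3.05, 2.36 and 2.27, and the *aipp2-1* and *paipp2-1* columns have no dot.

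Seed storage transcripts, markers of another stage, were also above Col-0 in the 3 mutants with the most *SEC31A*. Over all genotypes they did not keep the order of *SEC31A* levels, with *paipp2-1* reaching above *cpl2-2*. Their sum over 8 genes was 0.63 to 1.16 FPKM in Col-0, 105.96 to 221.62 in *aipp2-1/paipp2-1*, 10.63 to 34.61 in *cpl2-2* and 4.22 to 11.42 in *aipp3-1*. It was 10.29 to 53.06 in *paipp2-1*, 0.26 to 0.78 in *aipp2-1*, 2.02 to 2.36 in *clf-81* and 1.36 to 1.53 in *lhp1-3*. In Col-0 2 of the 8 genes were listed at 0 in both libraries, and in *aipp2-1/paipp2-1*, *cpl2-2* and *aipp3-1* none was. Their part in the *SEC31A* result was not tested. *clf-81* and *lhp1-3* stood apart in the 2 flower markers, at 14.4 to 17.0 FPKM summed against 0.67 to 1.15 in Col-0, while *SEC31A* was low there.

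The tested genes beside *SEC31A* on the chromosome did not share its pattern. The nearest gene, a tRNA gene (*AT1G18820*) that ends 497 bases before it, was not tested. It was listed at 0 in all 16 libraries, but these were made from poly(A) RNA, so its value cannot show whether it shared the pattern. *MIF3*, a mini zinc finger gene 1209 bases beyond its end, read 0.22 and 0.75 FPKM in Col-0 and 1.73 and 1.40 in *aipp3-1* (1.12, called, adjusted p 0.0271). *MIF3* had means of 0.97 FPKM in *cpl2-2* and 0.525 in *aipp2-1/paipp2-1*, the genotypes with the most *SEC31A*, and did not pass there. *PKS3*, on the other side, fell in *clf-81* (-1.06) and *lhp1-3* (-1.02). In *aipp2-1/paipp2-1* it rose by 0.90 without reaching 2-fold, at 9.99 and 5.27 FPKM against 4.42 and 3.04 in Col-0. *NRP2*, a histone chaperone gene, rose there by 0.76, at 67.49 and 36.48 FPKM against 27.12 and 31.14 in Col-0. Both rises were larger in the first *aipp2-1/paipp2-1* library, and 14.8% of all genes passed as higher in this comparison. *IQD30* stayed between 13.23 and 20.32 FPKM, and the lncRNA *AT1G05443* at or under 0.56. Beside the other members, the called genes were *MAPKKK14* in *aipp2-1/paipp2-1* (-1.16) and *POT1* in *clf-81* (-1.36) and *lhp1-3* (-1.08), both near *SEC13B*.

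By the Pearson correlation of 8 genotype means of log2(FPKM + 0.5) over the genes tested, the pattern most like that of *SEC31A* was that of *ASY1*, a meiotic chromosome axis gene (0.996), at 0.64 FPKM in Col-0, 17.8 in *aipp2-1/paipp2-1*, 14.1 in *cpl2-2* and 4.18 in *aipp3-1*. *AT4G31520* (0.994), *ACP1*, an acyl carrier protein gene (0.990), *AT1G74870* (0.989) and *AT4G33930* (0.988) followed. *ACP1* differed from the others in its Col-0 level, 57.2 FPKM against 0.19 to 0.64. The nearest to *SEC31B* were *EIF4B2*, a translation initiation factor gene, and *AT2G25320* (both 0.987). The nearest to *SEC13A* were *VAMP711*, a vacuolar SNARE gene (0.989), and *AT3G17800* (0.983), and to *SEC13B* *APY1*, an apyrase gene (0.982), and *PRA1B4* (0.976). All of these rest on the same 16 libraries and on 8 points, and are descriptions.

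Motifs were sought in the promoter window of each gene, 250 bases before to 50 after its start in TAIR10.1, on both strands. They were the telobox AAACCCTA, a GA repeat given as GAGAGA, the G-box CACGTG, the unfolded protein response element core TGACGTGG, and the ER stress response element, CCAAT and CACG set 10 bases apart. *SEC31A* held the GA repeat, on the minus strand at base 21 after its start. *SEC31B* held the G-box 223 bases before its start, *SEC13A* held the GA repeat at 4 positions in overlapping pairs, and *SEC13B* held none of the 5. Of 27443 such windows, 29.2% held the GA repeat, 7.68% the G-box, 6.22% the telobox, 1.51% the unfolded protein response element core and 0.849% the ER stress response element. A match describes the letters only.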

How the data were processed

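The 16 mRNA-seq libraries (2 for each of 8 genotypes) were sequenced as paired reads of 150 bases, and the authors trimmed them with SeqPrep and Sickle. The authors deposited FPKM values to 2 decimals for 33048 genes. The submitters' processing notes name TopHat, Bowtie, RSEM and edgeR without roles, and the build and annotation are not given in the sources used here. Gene positions and sequences came from TAIR10.1, which holds 32548 of the genes. Depth was taken from the steps of low FPKM values (94.2% to 98.1% within 0.2 of a whole fragment), and floors cover counting error only.

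Genes that reached 1 FPKM in 2 or more libraries, and the 4 members, were tested with limma 3.58.1 in R 4.3.3 (lmFit, eBayes with a trend) on log2(FPKM + 0.5), 16 libraries in one fit with 8 residual degrees of freedom, two-sided, Benjamini-Hochberg over 19895 genes. On simulated data for *aipp3-1* against Col-0, 182 of 200 changed genes were recovered with 2 false calls among 19895. The paper names a 2-fold change and no test. Sums of paralogs were fitted as extra features. Each library was left out in turn, and other filters, pseudocounts (0.1 and 1), scalings (quantile, median-ratio), fits of fewer libraries, no trend and a replicate block were tried. Other steps used Biopython 1.88, matplotlib 3.10.9, scipy 1.17.1, pandas 2.3.3 and numpy 2.4.6 under Python 3.11.15.

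The members and lists were chosen with earlier results of these data known. Named are the 4 members, the mutated genes, list genes called in any of the 7 comparisons with Col-0, the 6 neighbours of *SEC31A* and called neighbours of the others, and the 5 genes (2 for the other members) most alike over genotype means. *SAR1B*, *SEC16B*, *AT2G21630*, *AT4G32640*, *NUP107*, *NUP96* and *AT1G33410* are named outside this rule, after their values were seen.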

Additional observations from a re-analysis of the deposited data

Results flagged for a closer look

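*SEC31A* in *aipp2-1/paipp2-1* was higher than the changes in *aipp2-1* and *paipp2-1* add up to, by 4.14 on the scale of log2(FPKM + 0.5) (SE 0.279, limma adjusted p 0.000124), so the effect of losing *PAIPP2* differed between plants with and without the *aipp2-1* allele. The libraries read 33.21 and 22.93 FPKM against 0.14 and 0.21 in *aipp2-1* and 0.74 and 0.83 in *paipp2-1*. The *AIPP2* transcript was partly retained in *aipp2-1*, and its part in the difference was not tested.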

How the results depend on the processing

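Over 74 gene results and 26 alternatives, 1898 values were compared: 1764 kept their side of the threshold, 90 lost a call and 44 gained one, and 0 calls changed sign. The 1764 include values that turned sign without passing in either fit, such as 7 of 74 with median-ratio scaling.

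For *SEC31A*, the *paipp2-1* call was lost with a pseudocount of 1 (0.77, adjusted p 0.081) and in a fit of only the genotypes compared (1.24, 0.13), and leaving out single libraries gave 1.19 to 1.29. The *lhp1-3* value was called with a pseudocount of 0.1 (1.23, 0.013).
*SEC31B* in *paipp2-1* passed without both *aipp2-1/paipp2-1* libraries, an alternative added after seeing the data (-0.24, 0.047), and ranged from -0.26 to -0.22 with single libraries left out. It ranged from -0.11 to 0.32 in *aipp2-1/paipp2-1* and from -0.59 to -0.48 in *clf-81*.
*SEC13A* in *aipp2-1/paipp2-1* was -0.46 and lost with no filter (adjusted p 0.058), without a trend (0.059), with the replicate block (0.051) and with only the genotypes compared (0.46), and was -0.53 and lost with median-ratio scaling (0.054), with a leave-one-out range of -0.78 to -0.15. In *lhp1-3* it was -0.46 and passed with only the genotypes compared (0.011) and without both *aipp2-1/paipp2-1* libraries (0.00023), with a range of -0.52 to -0.40. *SEC13B* in *aipp2-1/paipp2-1* passed after quantile normalization (-0.39, 0.034), with a range of -0.49 to -0.15.
The SEC31 sum was 0.56 and lost in *aipp2-1/paipp2-1* with only the genotypes compared (0.34), and 0.32 and gained in *cpl2-2* without both *aipp2-1/paipp2-1* libraries (0.0042), with ranges of 0.34 to 0.79 in *aipp2-1/paipp2-1*, 0.30 to 0.34 in *cpl2-2* and -0.59 to -0.48 in *clf-81*. The SEC13 sum in *aipp2-1/paipp2-1* was -0.40 and lost with no filter (0.051), without a trend (0.055) and with only the genotypes compared (0.48), with a range of -0.64 to -0.15. In *lhp1-3* it was -0.31 and gained with only the genotypes compared (0.016) and without both *aipp2-1/paipp2-1* libraries (0.0015), with a range of -0.32 to -0.30.
Some of these fits held fewer libraries or another number of genes, and the cause of the changes was not tested.

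Of the ER stress genes that rose, 8 in *aipp3-1* became 5 after quantile normalization and 15 without both *aipp2-1/paipp2-1* libraries (2 to 15 with single libraries left out). The 7 in *cpl2-2* became 2 with only the genotypes compared and 16 without that pair (0 to 16), and the 11 in *aipp2-1/paipp2-1* became 0 with only the genotypes compared (5 to 18). The 8 in *clf-81* ranged from 2 to 12. The COPII partners that were lower ranged from 5 to 10 in *clf-81* (9 with all libraries) and from 0 to 9 in *aipp2-1/paipp2-1* (4 with all).

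Libraries that share a replicate number share only that number. The correlation of their deviations from the genotype means with those of Col-0 was -0.218 to 0.0588, and the replicate block changed 1 of 74 gene results, *SEC13A* in *aipp2-1/paipp2-1* (-0.46, adjusted p 0.051). At about 7 fragments in Col-0, depth limits what can be said of *SEC31A* in *clf-81* and *aipp2-1*.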
